A study of Mus musculus with 4 samples.

Results

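The genes described here are those of the translation machinery, namely initiation factors, elongation factors and the aminoacyl-tRNA synthetases, and the question was where FOXL2 lay at them in the fetal ovary. They were taken by symbol from the protein-coding genes of mouse build mm10 (RefSeq, GRCm38.p6): names beginning with Eif1 to Eif6, names beginning with Eef1 or Eef2 followed by a letter, and names of the form Aars, Aars2 or Mars1 with any first letter. The rule gave 104 of 21887 genes, of which 56 were initiation genes, 14 elongation genes and 34 synthetases. FOXL2, a forkhead transcription factor of the cells that support the oocyte, was mapped by ChIP-seq, which sequences the DNA recovered with an antibody. Ovaries of CD1 mouse embryos at E14.5, freed of the mesonephros and labelled as XX gonads, were pooled (80 to 100 ovaries per ChIP), and 2 FOXL2 ChIP samples and 2 input samples without antibody were made. No genotype, treatment or second tissue was compared. The files held a single list of 11438 FOXL2 peaks for the ChIP samples, each 300 bp wide and without score, height or value per replicate, of which 11435 lay on chromosomes 1 to 19, X and Y. No gene below therefore has a replicate error, the read depth is unknown, and intervals cover counting error over genes only. The list does not say in which cell type of the ovary a site was bound.

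Initiation factors bring the initiator tRNA and the small ribosomal subunit to the start codon of an mRNA. Elongation factors then deliver charged tRNAs and move the ribosome along, and each synthetase loads an amino acid on its tRNA, in the cytosol or, from separate nuclear genes, in the mitochondrion. These genes are used in every cell. Several of them are points of control: kinases that phosphorylate the eIF2 alpha subunit slow initiation under stress, and 4E-binding proteins hold back the cap-binding factor.

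Most of the translation genes had a FOXL2 peak at their own border. A peak counted for a gene when its centre lay in the gene or within 10 kb of it, and 79 of the 104 genes (76.0%, exact 95% confidence interval 66.6 to 83.8%) had such a peak, against 49.6% of all protein-coding genes. A peak was an own-border peak when its centre lay within 1 kb of either end of the gene and no end of another protein-coding gene was nearer. By this stricter count 65 of 104 genes (62.5%, interval 52.5 to 71.8%) were occupied, against 31.3% of all protein-coding genes. Of the other 14 genes with a peak, 8 had only peaks that lay nearer to the end of a neighbour (7.69%, against 8.91% of all protein-coding genes), and 6 had a peak over 1 kb from every border. The remaining 25 genes had no peak in the window. The median gene length was 17.9 kb for the translation genes and 17.2 kb for all protein-coding genes, and a window held the ends of 1.43 other protein-coding genes on average, against 1.06 over all genes. The own-border count leaves out peaks that lie nearer to a neighbour. No test between gene lists was made, and the shares stand beside those of all genes as descriptions.

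The groups differed little in how many genes had any peak. The count was 43 of 56 initiation genes (76.8%, interval 63.6 to 87.0%), 11 of 14 elongation genes (78.6%, interval 49.2 to 95.3%) and 25 of 34 synthetases (73.5%, interval 55.6 to 87.1%). Own-border peaks lay at 39 of 56 initiation genes (69.6%, interval 55.9 to 81.2%), 9 of 14 elongation genes (64.3%, interval 35.1 to 87.2%) and 17 of 34 synthetases (50%, interval 32.4 to 67.6%). These intervals overlap.

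**Figure D1:**
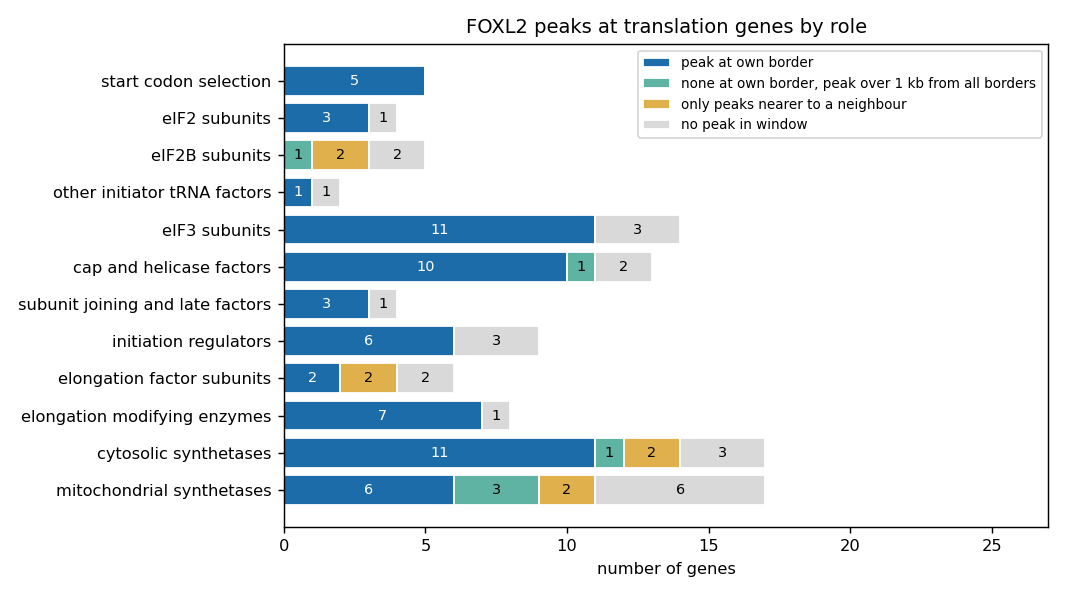
Number of translation genes (horizontal axis) in each role (vertical axis), split by the kind of FOXL2 peak they had. All 5 genes of start codon selection and 11 of 14 eIF3 genes had a peak at their own border, and none of the 5 eIF2B genes did. Over all protein-coding genes the share was 31.3%.

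Genes of start codon selection were all occupied at their own border (5 of 5, interval 47.8 to 100%), against 31.3% of all protein-coding genes. Eif1, whose product guards the choice of the start codon, had its peak on chromosome 11, centred 78 bp outside the gene, and its paralogue Eif1b on chromosome 9 had a peak 81 bp inside. Eif1a and Eif1ax, which encode the scanning factor eIF1A, had peaks 378 and 165 bp inside, and Eif1a had a further peak 3202 bp inside the gene. Eif5, the factor that triggers GTP hydrolysis by eIF2, had a peak on either side of its start, 277 bp outside and 780 bp inside. The eIF2 complex, which carries the initiator tRNA, had own-border peaks at 3 of its 4 genes (interval 19.4 to 99.4%). These lay 21 bp inside Eif2s1 (alpha subunit), 371 bp inside Eif2s2 (beta) and 1 bp outside Eif2s3x (gamma). The exception, Eif2s3y, lies on the Y chromosome, which tissue labelled XX should lack. The list also holds a peak placed on that chromosome, 89685 kb from the gene, and the origin of its reads was not tested. Why Eif2s3y has no peak was not tested either.

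The eIF2B genes had no peak at their own borders. eIF2B is the exchange factor that reloads eIF2 with GTP, and 0 of its 5 genes had an own-border peak (interval 0 to 52.2%). Eif2b1 and Eif2b2 had no peak, the nearest being 86.9 and 37.8 kb away. The peak next to Eif2b4 lay 280 bp outside the gene and 157 bp from the end of Snx17, which is arranged head to head with Eif2b4. The peak counted for Eif2b5 lay at Dvl3, 7985 bp away. Eif2b3 had a peak 5194 bp inside the gene. With 5 genes, the interval includes the share of all protein-coding genes. Of the factors that can place initiator tRNA without eIF2, Eif2a had a peak 458 bp outside and Eif2d had none, the nearest being 45.02 kb away.

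The eIF3 complex, the scaffold that joins the small subunit to the mRNA, had own-border peaks at 11 of 14 genes (78.6%, interval 49.2 to 95.3%). The share of all protein-coding genes was 31.3%. They clustered just inside the gene, with a median of 132.5 bp and quartiles of 92.75 and 177.75 bp over 12 peaks. The centre was 107 bp inside Eif3m, 119 bp inside Eif3b, 132 bp inside Eif3c and 133 bp inside Eif3f. Eif3g (50 bp), Eif3k (30 bp), Eif3d (172 bp), Eif3h (195 bp), Eif3e (247 bp) and Eif3a (407 bp) also had theirs inside. Eif3j1 had peaks 428 bp outside and 154 bp inside. Eif3f had another peak 8720 bp outside, and Eif3h another 12481 bp inside. Eif3i and Eif3l were without a peak, the nearest lying 14.7 and 14.9 kb away, as was Eif3j2, a copy of Eif3j1 on chromosome 18 whose nearest peak was 81.7 kb away.

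Cap-binding and helicase factors recognise the mRNA cap and unwind the leader. In this role 10 of 13 genes had an own-border peak, against 31.3% of all protein-coding genes. A peak over 1 kb from every protein-coding border was found at 5 of 13 (interval 13.9 to 68.4%), against 13.7% of all protein-coding genes. Over all 104 translation genes such peaks were found at 16 (15.4%, interval 9.06 to 23.8%). The helicase gene Eif4a1 had its peak 611 bp inside and Eif4a2 45 bp outside, and Eif4a3, the helicase of the exon junction complex, had a peak 46 bp inside. Eif4e, the cap-binding protein, had peaks 624 and 1736 bp inside, and its relatives Eif4e2 and Eif4e3 had peaks 46 and 143 bp inside, with another 22254 bp inside Eif4e3. The scaffold gene Eif4g1 had a peak 74 bp inside, and Eif4g2 had peaks 723 bp inside and 238 bp outside. The helicase cofactor genes Eif4b and Eif4h had peaks 603 and 260 bp inside and each had a further peak outside the gene. Eif4g3 had no own-border peak, but peaks 1791 and 2393 bp inside its end. Eif4e1b and Eif4a3l1 had no peak, the nearest being 46.0 and 139 kb away.

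Of the late factors, Eif5b, the GTPase of subunit joining, had a peak 242 bp inside. Eif5a, which carries the hypusine residue, had peaks 752 and 1425 bp inside, and Eif5a2 had a peak 562 bp inside. Eif6, which keeps the ribosomal subunits apart, had none, the nearest being 44.9 kb away.

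The regulators of initiation include the 4 eIF2 alpha kinases and 3 4E-binding proteins. Over all protein-coding genes 31.3% had an own-border peak and 50.4% had no peak in the window. Each kinase gene had an own-border peak inside the gene. The centre lay 101 bp inside Eif2ak1 (the haem-regulated kinase), 59 bp inside Eif2ak2 (activated by double-stranded RNA), 30 bp inside Eif2ak3 (activated by stress of the endoplasmic reticulum) and 160 bp inside Eif2ak4 (activated by uncharged tRNA). Eif2ak3 had another peak 24229 bp inside the gene. The 4E-binding protein genes had no peak in the window, with the nearest 12.9 kb from Eif4ebp3, 23.2 kb from Eif4ebp2 and 132 kb from Eif4ebp1. Eif4enif1, which encodes another partner of the cap-binding protein, had a peak 85 bp inside, and Eif1ad had a peak 27 bp outside. These sets were named after their values were seen.

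In the elongation group, own-border peaks lay at 7 of 8 genes for modifying enzymes and at 2 of 6 genes for the factor subunits (intervals 47.3 to 99.7% and 4.33 to 77.7%), against 31.3% of all protein-coding genes. Without Eef1akmt4-ece2, a read-through name that repeats the start of Eef1akmt4, the enzyme count was 6 of 7. That name is also among the 11 of 14 elongation genes with any peak and the 9 of 14 with an own-border peak. Eef1a1, whose product brings charged tRNA to the ribosome, had its peak on chromosome 9, centred 606 bp inside, and Eef1b2, a subunit of its exchange factor, had a peak 119 bp inside. The peak counted for Eef1d, another exchange subunit, lay 388 bp inside the gene but 339 bp from the end of Tigd5. The peak counted for Eef1a2 lay 6946 bp away, nearer to a neighbour. Eef1g and Eef1e1 had no peak, the nearest being 11.2 and 117 kb away. Eef1e1 was placed with the factor subunits by its symbol alone. Among the enzymes, Eef2k, the kinase that inhibits elongation factor 2, had a peak 590 bp inside. The methyltransferase genes Eef2kmt (98 bp inside), Eef1aknmt (108 bp inside), Eef1akmt2 (788 bp inside) and Eef1akmt3 (16 bp outside) were occupied as well. A peak 91 bp outside Eef1akmt4 counted also for Eef1akmt4-ece2, so the 68 own-border counts of translation genes rest on 67 distinct peaks. Eef1akmt1 had no peak, the nearest being 93.3 kb away. In the elongation group 0 of 14 genes had a peak over 1 kb from every border. The interval, up to 23.2%, includes the 13.7% of all protein-coding genes.

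Cytosolic and mitochondrial synthetases are encoded by largely separate genes, and their own-border counts had overlapping intervals, with the difference itself not tested. Such peaks lay at 11 of 17 cytosolic genes (64.7%, interval 38.3 to 85.8%) and at 6 of 17 mitochondrial genes (35.3%, interval 14.2 to 61.7%), the latter close to the 31.3% of all protein-coding genes. For any peak in the window the counts were 14 of 17 (82.4%, interval 56.6 to 96.2%) and 11 of 17 (64.7%, interval 38.3 to 85.8%). The cytosolic count includes Gars and Kars, known to serve both compartments. The median gene length was 26.1 kb for cytosolic and 32.9 kb for mitochondrial synthetases.

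**Figure D2:**
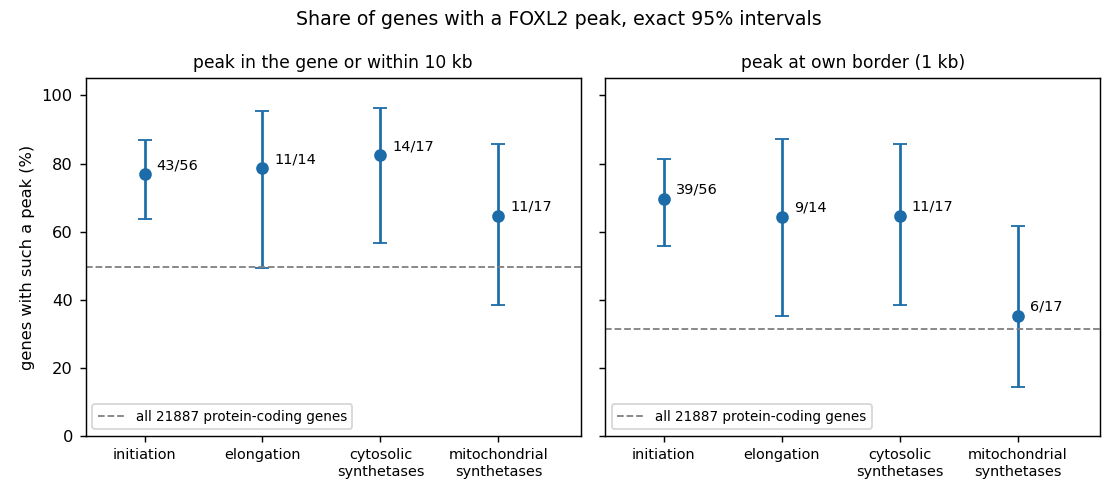
Share of genes (vertical axis, percent) with a FOXL2 peak in the gene or within 10 kb (left) and at the own border (right), with exact 95% intervals, for initiation, elongation and the synthetases of each compartment. The dashed line is the share of all 21887 protein-coding genes, 49.6% on the left and 31.3% on the right, and at own borders the mitochondrial synthetases (6 of 17) lie nearest to it.

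Among cytosolic synthetases the peak centre lay 1 bp outside Iars (isoleucine), 29 bp inside Nars (asparagine), 34 bp inside Qars (glutamine), 92 bp inside Cars (cysteine) and 141 bp inside Rars (arginine). Gars (glycine, 185 bp), Vars (valine, 230 bp), Sars (serine, 312 bp) and Dars (aspartate, 337 bp) had theirs inside too, while those of Wars (tryptophan, 87 bp) and Hars (histidine, 186 bp) lay outside. Mars1 (methionine), Tars (threonine) and Lars (leucine) had no peak, the nearest being 29.8, 191 and 13.6 kb away. Among mitochondrial synthetases Mars2 (106 bp), Sars2 (116 bp), Yars2 (125 bp), Vars2 (276 bp) and Fars2 (298 bp) had a peak inside and Cars2 12 bp outside. Iars2, Lars2, Pars2, Rars2, Tars2 and Wars2 had none. For 14 amino acids the rule holds a gene for each compartment. Own-border peaks lay at both genes for 3 of them, at the cytosolic gene alone for 6, at the mitochondrial gene alone for 2 and at neither for 3.

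Some peaks of translation genes lay close to the end of an adjacent gene as well. A peak within 1 kb of both its own end and the end of another protein-coding gene was found at 27 of the 104 translation genes (26.0%, against 9.27% of all protein-coding genes). Of the 72 translation genes with any peak within 1 kb of an own end (69.2%, against 35.3% of all protein-coding genes), these were 37.5% (interval 26.4 to 49.7%). Over all protein-coding genes the second share was 26.3%. For the synthetases it was 11 of 22 genes (50%, interval 28.2 to 71.8%), for elongation genes 5 of 10 (50%, interval 18.7 to 81.3%) and for initiation genes 11 of 40 (27.5%, interval 14.6 to 43.9%), with overlapping intervals. Eef1akmt4 and its read-through name, which have these peaks in common, count as separate genes in the 27, the 72 and the 5 of 10. Where own-border peaks alone are counted, 19 translation genes shared their peak with another border (18.3%, against 5.02% of all protein-coding genes), 2 of these being Eef1akmt4 and its read-through name. Hars and Hars2 on chromosome 18 shared the peak at 36783242 to 36783541, which lay 186 bp from Hars and 189 bp from Hars2 and was therefore counted for Hars.

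The sharing decides which gene a peak is counted for. The peak 296 bp outside Kars (lysine) lay 291 bp from Terf2ip, and that 440 bp outside Ears2 (glutamate) lay 439 bp from Ubfd1. The peak 315 bp outside Yars (tyrosine) lay 246 bp from S100pbp. None of these 3 synthetases has an own-border peak by the rule. Fars2 with Lyrm4, Sars2 with Mrps12 (a mitochondrial ribosomal protein gene) and Wars with Wdr25 shared a peak that lay nearer to the synthetase. Of 16 distinct shared peaks with both strands listed, 14 lay at the starts of genes arranged head to head, as at Eif2s1 with Atp6v1d and Eif1ad with Banf1. This count was not made over all protein-coding genes, so it cannot be read as particular to translation genes. The shared peaks not arranged so were those of Eif4g1 with Fam131a and Vars2 with Gtf2h4.

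Own-border peaks of translation genes sat just inside the gene at its start. The median centre lay 117.5 bp inside (interval of the median 81 to 160 bp, 68 gene and peak pairs from 67 distinct peaks), and for all protein-coding genes it lay 189 bp inside (184 to 196 bp, 7265 pairs), a difference that was not tested. The centre was inside the gene for 53 of 68 pairs (77.9%, interval 66.2 to 87.1%), against 81.6% over all genes. Medians were 125.5 bp for initiation (42 pairs), 108 bp for elongation (9 pairs) and 116 bp for synthetases (17 pairs), with overlapping intervals. Peaks at shared borders had a median of 59 bp (19 pairs) and the rest 132 bp (49 pairs). Over all genes these medians were 124 and 202 bp.

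**Figure D3:**
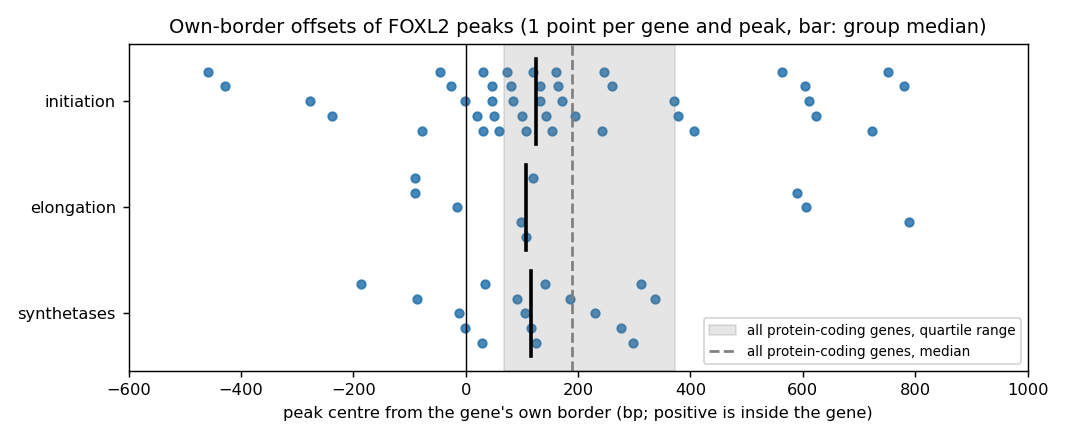
Distance of the own-border peak centre from the border for each gene and peak (horizontal axis, bp, positive inside the gene) for initiation, elongation and synthetase genes. Black bars are group medians (125.5, 108 and 116 bp), and the grey dashed line and band are the median (189 bp) and the range between the quartiles for all protein-coding genes.

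RefSeq promoter windows, from 250 bases before to 50 after a transcription start, give strand and starts for 78 of the 104 genes and for 53 of the 65 with an own-border peak (81.5%). All 55 gene and peak pairs of these genes, from 54 distinct own-border peaks, lay at the end that holds the start (interval 93.5 to 100%), against 98.3% over all genes. Measured from the nearest listed start, the median centre was 98 bp downstream (interval of the median 46 to 126 bp), against 129 bp (123 to 134 bp) over all genes. The 300 bp of the peak covered that start for 34 of 55 pairs (61.8%, interval 47.7 to 74.6%), against 38.6% over all genes.

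Some peaks counted as lying away from borders were at starts inside the gene. The 19 such peaks of translation genes comprised 13 inside genes, 9 of them in genes with a listed start, and 3 of these 9 centres lay within 200 bp after one. Over all protein-coding genes the share was 16.6% (341 of 2049). The 3 were at Aars2 (151 bp after a start, although 3477 bp inside the gene), Eif4g3 (114 bp) and Eif5a (97 bp for its inner peak). The inner peak of Aars (alanine), 6302 bp from the gene's end (chr8:111033931-111034230), lay 238 bp after a listed start. Further from a listed start, but within 1 kb of it, were the inner peak of Eif4e (659 bp after) and the second inner peak of Eif4g3 (716 bp after). The 2 peaks of Nars2, 16443 and 24945 bp inside, were 15755 bp or more from any listed start. With peaks within 1 kb of any listed start counted too, 72 of 104 genes were occupied (37.5% of all protein-coding genes), and the genes added were Aars, Aars2, Ears2, Eif2b4, Eif4g3, Kars and Yars.

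The following stretches show what lies under or next to these peaks. They run 5′ to 3′ on the strand of the gene from 170 bases before the start to 30 bases from it, on mm10 (RefSeq, GRCm38.p6). Within each class they are the genes whose peak covered the most bases of the promoter window. Only starts within 20 bp of the gene's outer end were used, and the read-through name was not repeated. Eif2s3x and Eif1ad were added because their covered part holds a motif of interest. The covered part varied, from 290 bases at Eef1akmt4 to 94 at Sars2. Capitals mark matches, on either strand, to the motifs searched.
Eif1, chr11:100319779-100319978 (+ strand): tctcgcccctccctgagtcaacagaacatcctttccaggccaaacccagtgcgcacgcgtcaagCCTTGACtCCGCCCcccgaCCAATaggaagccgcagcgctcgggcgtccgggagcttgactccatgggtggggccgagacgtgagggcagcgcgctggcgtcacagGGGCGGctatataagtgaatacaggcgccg
Eif4a2, chr16:23107298-23107497 (+ strand): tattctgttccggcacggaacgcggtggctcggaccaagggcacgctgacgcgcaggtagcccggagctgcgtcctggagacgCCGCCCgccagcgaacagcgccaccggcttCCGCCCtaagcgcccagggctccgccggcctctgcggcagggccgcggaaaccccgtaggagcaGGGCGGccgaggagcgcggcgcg
Eif2s3x, chrX:94212622-94212821 (- strand): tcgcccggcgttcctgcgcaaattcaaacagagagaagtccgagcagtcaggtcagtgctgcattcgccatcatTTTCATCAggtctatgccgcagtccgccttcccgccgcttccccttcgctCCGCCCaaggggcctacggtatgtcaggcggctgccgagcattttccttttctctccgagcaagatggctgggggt
Eif1ad, chr19:5366643-5366842 (+ strand): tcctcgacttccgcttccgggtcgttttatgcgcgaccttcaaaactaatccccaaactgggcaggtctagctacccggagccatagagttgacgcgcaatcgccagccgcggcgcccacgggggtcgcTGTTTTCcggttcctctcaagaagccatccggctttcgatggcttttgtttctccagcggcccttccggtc
Eef1akmt4, chr16:20611431-20611630 (+ strand): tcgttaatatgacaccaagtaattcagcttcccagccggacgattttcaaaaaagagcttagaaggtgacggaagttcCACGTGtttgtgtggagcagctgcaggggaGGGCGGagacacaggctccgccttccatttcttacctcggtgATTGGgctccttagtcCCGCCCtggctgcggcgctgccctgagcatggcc
Eef2kmt, chr16:5255927-5256126 (- strand): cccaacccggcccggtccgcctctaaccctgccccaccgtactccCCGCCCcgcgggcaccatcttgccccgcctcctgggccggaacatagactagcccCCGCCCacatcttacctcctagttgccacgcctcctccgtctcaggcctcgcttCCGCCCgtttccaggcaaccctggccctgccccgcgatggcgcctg
Iars, chr13:49681960-49682159 (+ strand): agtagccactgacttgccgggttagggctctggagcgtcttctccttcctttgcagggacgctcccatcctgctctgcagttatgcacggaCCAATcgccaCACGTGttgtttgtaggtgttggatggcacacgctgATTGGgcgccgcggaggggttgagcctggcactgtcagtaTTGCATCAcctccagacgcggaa
Qars, chr9:108507835-108508034 (+ strand): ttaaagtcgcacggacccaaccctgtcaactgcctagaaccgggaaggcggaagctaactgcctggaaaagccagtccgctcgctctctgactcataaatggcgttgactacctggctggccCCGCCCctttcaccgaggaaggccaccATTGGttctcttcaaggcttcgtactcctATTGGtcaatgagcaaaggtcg
Cars2, chr8:11550742-11550941 (- strand): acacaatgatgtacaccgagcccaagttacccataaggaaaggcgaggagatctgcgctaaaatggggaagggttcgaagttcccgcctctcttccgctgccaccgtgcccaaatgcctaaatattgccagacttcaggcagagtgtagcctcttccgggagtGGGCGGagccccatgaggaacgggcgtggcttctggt
Sars2, chr7:28741798-28741997 (+ strand): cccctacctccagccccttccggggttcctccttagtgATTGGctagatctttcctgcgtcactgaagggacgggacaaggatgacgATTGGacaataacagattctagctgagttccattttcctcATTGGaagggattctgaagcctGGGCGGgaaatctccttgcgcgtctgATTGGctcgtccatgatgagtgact

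The peak of Eif1 reached from 227 bases before the start to base 73. In this stretch GTCAAGG, the first bases of a response element described for FOXL2, matched on the opposite strand at base -106, beside a GC box (GGGCGG) and a CCAAT box. GTCAAGG occurs in 3.09% of all promoter windows of protein-coding genes. The canonical forkhead core TGTTTAC (3.01% of windows) was in none of the 10 stretches, and the looser TGTTTNC, which includes it (18.1% of windows), was in that of Eif1ad alone, at base -41 and inside the peak. Past the printed stretches, TGTTTNC also matched at Sars2 from base 34, inside the peak, and at Eif2s3x from base -185, outside it. The shares are of whole promoter windows, which are longer than the stretches. Iars holds TGATGNAA, the core of the amino acid response element (3.60% of windows), from base 8, and Eif2s3x holds it from base -96, both inside the peak. Iars and Eef1akmt4 hold the E-box CACGTG (7.84% of windows). GGGCGG (46.2% of windows) was in 8 of the 10 stretches, and CCAAT (38.2% of windows) recurred in Sars2, at bases -132, -83, -43 and 6, and in Iars and Qars. The Sars2 matches at bases -132 and -83 lay outside the peak, as did the Eef2kmt GC boxes at -125 and -70. Other motifs searched were CCGGAAGT (ETS, 5.15% of windows), TGACGTCA (CRE, 2.23%), TATAAA (12.6%) and those of NRF1 (1.33%), YY1 (1.21%) and ZNF143 (0.423%), which had no match in the 10 stretches. Each of these peaks reaches beyond its window, and the bases further inside the genes were not searched.

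A number of translation genes had several peaks in the window. In all, 34 of them (32.7%, interval 23.8 to 42.6%) had 2 or more, against 14.8% of all protein-coding genes, and 9 (8.65%, against 2.82%) had 3 or more, or 8 without Eef1akmt4-ece2. Window peaks include those at adjacent genes. Each of the 9 genes with 3 or more had a peak within 1 kb of another gene's end and nearer to that end. The 123 counts came from 119 distinct peaks, of which 67 were own-border peaks of a translation gene and 34 were neighbour peaks. The peak between Hars and Hars2 is in both counts. Near the limit of the window, peaks 9268 bp from Eif3k, 9650 bp from Eif4a1 and 9660 bp from Eif4g3 counted, and those 11.2 kb from Eef1g and 12.9 kb from Eif4ebp3 did not.

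Genes of the same pathway outside the symbol rule were also counted. Of 38 such genes, 32 (84.2%, interval 68.7 to 93.98%) had a peak in the window, against 49.6% of all protein-coding genes, and 19 (50%, interval 33.4 to 66.6%) an own-border peak, against 31.3%. Eef2, the translocase, which the rule leaves out, had its peak 185 bp inside, and Pabpc1, the poly(A)-binding protein gene, 2 bp outside. Of the release factor genes, Etf1 and Gspt2 had peaks 207 and 342 bp inside, and the peak counted for Gspt1 lay nearer to a neighbour. Of 13 mitochondrial translation genes 8 had an own-border peak, among them the elongation factor genes Gfm1 (5 bp inside) and Tufm (100 bp inside). Of 6 further genes, for synthetases or for scaffold proteins of the multi-synthetase complex, only Tarsl2 did (229 bp inside). Eprs, Farsa, Farsb, Aimp1 and Aimp2 did not. In the integrated stress response, where phosphorylated eIF2 raises translation of Atf4, 5 of 8 genes had a peak in the window (62.5%) and 4 an own-border peak. The own-border peaks were at Atf4 (205 bp inside), the eIF2 phosphatase genes Ppp1r15a (6 bp inside) and Ppp1r15b (194 bp inside) and Sesn2 (392 bp inside). Ddit3, Asns and Chac1 had no peak in the window, and the peak counted for Trib3 lay nearer to a neighbour.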

How the data were processed

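FOXL2 ChIP-seq of pooled fetal ovaries gave 2 ChIP and 2 input samples, grouped by their titles. The authors' deposited list holds peak start and end positions and no signal. Per the submitters' processing notes, Bowtie 1.2, Picard 1.110, bedtools 2.24.0, HOMER 4.9 and build mm10 were used; the threshold and the handling of replicates and inputs were not given in the sources used here. These set which genes count as occupied, and weaker binding may be missing from the list.

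Starts were made 1-based and peak centres compared with RefSeq gene ends (GRCm38.p6, the assembly of mm10; 21887 protein-coding genes) in Python 3.11.15 with scipy 1.17.1, and 3 peaks on other scaffolds were left out. Offsets are positive inside the gene. Intervals are exact (Clopper-Pearson) at 95%, those of medians from order statistics. The assignment was tested on simulated data with 200 planted genes among 21887, and 200 were recovered. Where strand or starts are used, they come from the RefSeq promoter windows. Mitochondrial synthetases are those whose symbol ends in ars2.

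The genes and lists were chosen with earlier results of these data known. Named genes are those of each role with 2 or more peaks, the nearest own-border peaks, other peak classes, or none. Printed promoters were further limited to starts within 20 bp of the gene's outer end, a choice made after the data were examined. The comparison of motif shares between genes with and without a peak is void, since 75.0% of the genes have a promoter entry and 80% were required. A few genes and neighbours are counted but not reported here by name.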

Additional observations from a re-analysis of the deposited data

How the results depend on the processing

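Of 35 alternative values computed, 30 stayed inside the interval of the reported value. The share of translation genes with a peak was 58.7% for the gene body alone (36.2% of all protein-coding genes), 89.4% in a window of 50 kb (67.5%) and 66.3% with each peak given to its nearest border (40.9%). With own-border peaks in place of window peaks, it was 50% for synthetases and 35.3% for mitochondrial synthetases (31.3% of all protein-coding genes). The own-border share ranged from 54.8% (border of 500 bp) to 69.2% (any peak within 1 kb of the own end, and, added after the data were examined, any listed start). The share of all protein-coding genes moved too. It was 26.8% for the border of 500 bp, 35.3% for any peak within 1 kb of the own end and 37.5% with any listed start. The alternatives on motif mismatches and strand were not run, because the motif comparison was void. A stricter peak threshold and leaving out a replicate need values that the single list does not hold. No paired analysis was possible because the list has no value per sample.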

Other observations

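Near-identical or closely related copies of translation genes differed in their peaks, a set chosen after the values were seen. Eif4a3 had an own-border peak and its copy Eif4a3l1 none, and Eif3j1 had 2 while Eif3j2 had none. Eif2s3x had a peak and Eif2s3y had none, but Eif2s3y lies on the Y chromosome, which tissue labelled XX should lack. Eef1a1, the widely used form, had a peak at its own border, whereas for Eef1a2, known from muscle and neurons, the only peak counted lay at a neighbour. Eif4e had 2 peaks inside the gene, and Eif4e1b, known from the oocyte, had none. In other pairs each copy had an own-border peak, as with Eif1 and Eif1b, Eif1a and Eif1ax, Eif4a1 and Eif4a2, and Eif5a and Eif5a2. How uniquely reads map to such copies was not tested.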
